A study of Rattus norvegicus with 6 samples.

Results

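The genes described here encode subunits of the serine/threonine protein phosphatases PP1 to PP6 and the dual-specificity phosphatases (Dusp), measured in rat osteosarcoma cells with and without the serine protease inhibitor AEBSF. They were chosen by symbol: probe sets whose platform annotation gave exactly 1 gene symbol beginning with Ppp1 to Ppp6 followed by c or r, or with Dusp and a number, leaving out 1 glycogen-targeting subunit of PP1 that the rule sets aside. This gave 88 genes, read by 138 probe sets, of 14218 genes with exactly 1 symbol on the array. The family was proposed with the results of the same comparison known, so its counts and medians describe these cultures and support nothing. Of the 88 genes, 37 belong to PP1, 16 to PP2A, 5 to PP2B (calcineurin), 5 to PP4, 1 to PP5, 4 to PP6 and 20 are Dusp genes. All 6 cultures were of UMR106-01, a single rat osteosarcoma line with properties of osteoblasts, grown in 10% fetal bovine serum and given beta-glycerol phosphate at 6.5 mM, the phosphate donor for mineral, 64 h after plating. The 3 AEBSF cultures received 400 µM AEBSF with that medium, and the 3 mineralizing cultures did not. RNA was collected at 76 h, after 12 h of exposure, and each culture gave 1 array.

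Protein phosphatases of this family remove phosphate from serine and threonine, and their few catalytic subunits gain specificity from many regulatory subunits. PP2A is a trimer in which a scaffold joins the catalytic subunit to 1 of several exchangeable regulatory subunits, PP1 pairs with targeting proteins and inhibitors, and PP2B is switched on by calcium and calmodulin. The Dusp enzymes include the MAP kinase phosphatases, which remove phosphate from both threonine and tyrosine of ERK, JNK and p38, the kinases through which osteoblasts respond to growth factors and matrix.

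Every value below is a MAS5 signal, the array software's summary of 1 probe set on 1 array. The values themselves show that all arrays share 1 overall level. Trimmed by 2% at either end, the mean signal came to 500.15 or 500.16 on every array. A gene was read from its brightest probe set, and 70 of the 88 genes lay above the signal filter, a mean signal of 67.2 over all 6 arrays, and were tested. The 18 below it, among them Dusp4, Dusp5, Dusp8, Ppp1r12b, Ppp1r14a, Ppp2r2b, Ppp2r2c and Ppp3r2, had signals between 0.22 and 87.2 in single cultures and are not interpreted. Of the osteoblast markers, Ibsp averaged 17101 ± 251 in AEBSF cultures and 16520 ± 750.1 in mineralizing cultures and Alpl averaged 2113 ± 159 and 2186 ± 33.2 (SD, n = 3 each), while Bglap was near 0, with means of 4.80 and 1.95. Of 8 tested osteoblast markers, 3 passed lower and 0 higher, and 7 had values below 0, with a median log2 fold change of -0.16. The 3 were the collagen genes Col1a2 and Col1a1 and the phosphate-regulating endopeptidase gene Phex, at -1.13, -0.67 and -0.73 on the log2 scale (limma adjusted p = 1.27e-05, 0.00116 and 3.36e-05). The summed signal of 4 endothelial markers was 57.7 to 119 in AEBSF cultures and 47.0 to 75.5 in mineralizing cultures, and that of 6 macrophage and osteoclast markers was 157 to 251 and 189 to 262. Of 5 muscle markers, Myh1 read 3527 ± 665 in AEBSF cultures and 3735 ± 288 in mineralizing cultures and Des 73.1 ± 16.5 and 69.99 ± 9.92 (SD, n = 3 each), while Ckm, Acta1 and Myog lay below the filter, with means of 19.4, 11.5 and 46.3 in AEBSF cultures and 20.5, 14.3 and 80.5 in mineralizing cultures. The part of marker differences or of other cells in the results below was not tested.

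With AEBSF, the scaffold and several regulatory subunits of PP2A were higher, as were the single PP5 gene, regulators of PP4 and PP6, 3 PP1 targeting subunits and 2 ERK phosphatases, while the PP2A regulatory subunit Ppp2r3a was lower. The brightest probe set of another, Ppp2r5c, was lower too, but its other probe sets lay on the opposite side. The catalytic subunits of PP1, PP2A, PP2B, PP4 and PP6 did not pass. In limma, a linear model fitted across all probe sets, 15 of the 70 tested genes, 13 higher and 2 lower, had an adjusted p under 0.05, against 16.3% of all 9864 tested genes, 7.09% higher and 9.22% lower. Without adjustment, 24 of the 70 genes and 3142 of all 9864 had a p under 0.05. The changes were small, from 1.16-fold to 1.49-fold with a median of 1.24-fold, and the median log2 fold change was 0.07 over the 70 genes and 0.002 over all tested genes. The 3 AEBSF values lay wholly beyond the 3 mineralizing values for 28 of the 70 genes, 21 higher and 7 lower, and the same held for 36.1% of all tested genes. Of 104 tested probe sets of the family, 16 were higher and 2 lower past the threshold, where 13.4% of all tested probe sets passed in either direction.

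**Figure D1:**
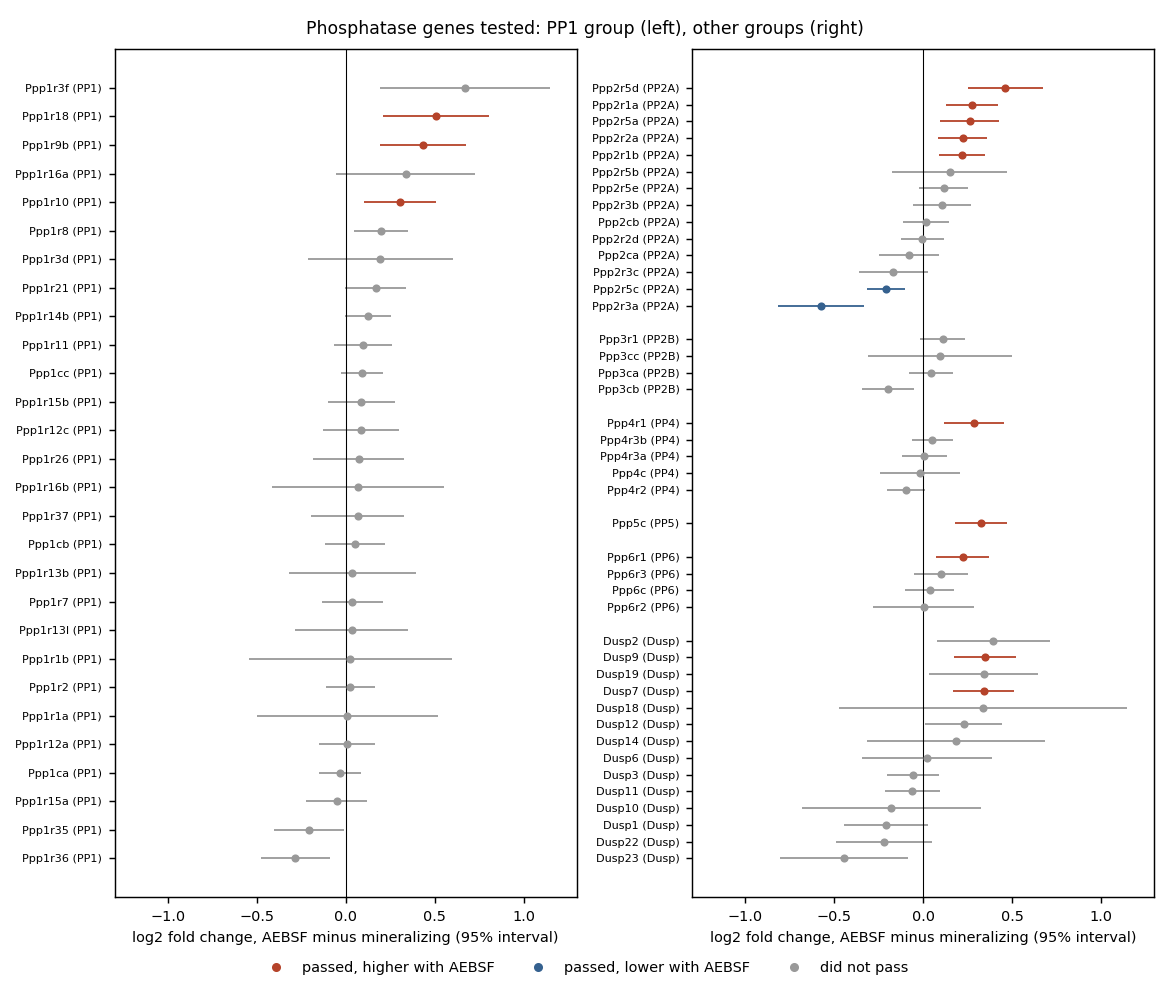
Log2 fold change (horizontal axis, AEBSF minus mineralizing, with 95% interval) of the 70 tested phosphatase genes, with the PP1 group in the left panel and the other groups in the right panel, sorted by value within groups. Red marks the 13 genes that passed higher and grey the 55 that did not pass. Blue marks the 2 whose brightest probe set passed lower, Ppp2r3a and Ppp2r5c. The other probe sets of Ppp2r5c lay opposite, while that of Ppp2r3a lay lower too. After scaling to hybridization controls none of the 13 passed and all values shifted downward.

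Higher and lower here mean against the bulk of genes on each array. The hybridization controls, control transcripts added for hybridization in fixed amounts, had mean log2 signals of 11.033, 10.995 and 11.153 in AEBSF cultures 1, 2 and 3, against 10.816, 10.999 and 10.926 in mineralizing cultures 1, 2 and 3. With arrays scaled to these controls, the median over all tested genes was -0.144 in place of 0.002 on the log2 scale, and that of the phosphatase genes was -0.08. After that scaling 0 of the 70 genes passed higher in limma and 6 passed lower, namely Ppp2r3a, Ppp2r5c, Ppp1r36, Dusp23, Dusp1 and Ppp3cb (adjusted p = 0.00042, 0.00793, 0.00623, 0.0492, 0.0487 and 0.032). The shift ran across the arrays. Over all tested genes, 61 passed higher and 1535 lower after that scaling, in place of 699 and 909. The count of 15 also fell when single arrays were left out. It was 6 without each of mineralizing cultures 1, 2 and 3 (5, 5 and 6 of them among the 15), 6 and 7 without AEBSF cultures 1 and 2, and 13 without AEBSF culture 3. Calls over all tested probe sets fell as well, from 2495 to 1200, 1236 and 1505 without mineralizing cultures 1, 2 and 3. They came to 1624, 1819 and 2250 without AEBSF cultures 1, 2 and 3.

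Of 14 tested PP2A genes, 5 passed higher and 2 lower, where 7.09% and 9.22% of all tested genes did, with a group median log2 fold change of 0.11. Both scaffold genes, which hold the enzyme together, were higher. Ppp2r1a, the main scaffold, had signals of 2842, 2745 and 2416 in AEBSF cultures 1, 2 and 3, against 2288, 2116 and 2198 in mineralizing cultures 1, 2 and 3. The groups did not overlap, with AEBSF culture 3 nearest to the mineralizing cultures. The rise was 1.21-fold (0.27 ± 0.07 as log2 fold change and SE; limma adjusted p = 0.0216), and the dimmer of its probe sets gave 0.33 (adjusted p = 0.0286). Ppp2r1b, the other scaffold, had signals of 1314, 1338 and 1325 in AEBSF cultures, against 1133, 1129 and 1153 in mineralizing cultures. Its cultures lay close together within each group and apart between groups, a rise of 1.16-fold (0.22 ± 0.06 as log2 fold change and SE; limma adjusted p = 0.0301). The Ppp2r1a call was lost on leaving out mineralizing 2 or 3 or AEBSF 1 or 2 (limma adjusted p = 0.0885, 0.0584, 0.0739 and 0.0589), and the Ppp2r1b call on leaving out any 1 mineralizing culture (1, 2, 3) or AEBSF 1 or 2 (0.102, 0.103, 0.0717, 0.0586 and 0.0637).

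The regulatory subunits, which direct PP2A to its substrates, moved in both directions. Ppp2r5d, of the B' family, had signals of 1086, 998 and 832 in AEBSF cultures, against 687, 675 and 746 in mineralizing cultures. All AEBSF cultures lay above the others although they spread widely, and the rise of 1.38-fold (log2 fold change 0.46, SE 0.10) passed in limma (adjusted p = 0.0104). A second Ppp2r5d probe set gave signals of 545, 564 and 437 in AEBSF cultures and 406, 334 and 355 in mineralizing cultures, and passed as well (0.49, adjusted p = 0.0199). Ppp2r5a, of the same family, had signals of 2940.4, 2957 and 2703 in AEBSF cultures, against 2218, 2703 and 2278 in mineralizing cultures. It was the 1 gene that passed with overlapping groups, since AEBSF culture 3 and mineralizing culture 2 met (0.26 ± 0.08 as log2 fold change and SE; limma adjusted p = 0.0419). Ppp2r2a, of the B family, which acts in mitotic exit, had signals of 2842, 2777 and 2482 in AEBSF cultures and 2251, 2314 and 2369.9 in mineralizing cultures (0.22 ± 0.06 as log2 fold change and SE; limma adjusted p = 0.0371), without overlap. The Ppp2r5a call was lost on leaving out mineralizing 1 or 3 or AEBSF 1 or 2 (limma adjusted p = 0.158, 0.128, 0.111 and 0.102). The Ppp2r2a call was lost on leaving out any 1 mineralizing culture (1, 2, 3) or AEBSF 1 or 2 (limma adjusted p = 0.128, 0.104, 0.0664, 0.117 and 0.0917). Averaged over all probe sets of the gene, dim ones included, the log2 fold change was -0.68 for Ppp2r2a and -0.0425 for Ppp2r5a, and neither passed (limma adjusted p = 0.163 and 0.903).

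Ppp2r3a, a calcium-binding subunit of the B'' family, had the largest change of the genes that passed. Its signals were 328, 304 and 385 in AEBSF cultures 1, 2 and 3, against 497, 534 and 478 in mineralizing cultures 1, 2 and 3. The groups were well apart, a fall of 1.49-fold (-0.57 ± 0.11 as log2 fold change and SE; limma adjusted p = 0.00641), and the call held in all 17 alternatives tried. A second, dimmer probe set lay lower too but did not pass (log2 fold change -0.35, adjusted p = 0.138). Ppp2r5c, a B' subunit, gave readings that differed between probe sets. Its brightest had signals of 2745, 2758 and 2779 in AEBSF cultures, against 3194, 3205 and 3186 in mineralizing cultures, narrow groups that lay apart (-0.21 ± 0.05 as log2 fold change and SE; limma adjusted p = 0.0174). The other 2 probe sets of Ppp2r5c lay on the opposite side, at 0.15 and 0.18 on the log2 scale, and did not pass (adjusted p = 0.134 and 0.148), so no single direction is given for this gene. The Ppp2r5c call was lost without mineralizing culture 1 or 2 (limma adjusted p = 0.0637 and 0.0734). The group's count of 7 became 3 without each of mineralizing cultures 1, 2 and 3 and AEBSF cultures 1 and 2, and 4 when a gene's probe sets were averaged.

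The remaining PP2A genes did not pass. The catalytic subunit Ppp2ca had signals of 777, 899 and 792 in AEBSF cultures and 844, 879 and 881 in mineralizing cultures, which overlapped (log2 fold change -0.08, 95% interval -0.25 to 0.09). The second catalytic gene, Ppp2cb, had 5562, 5453 and 5886 in AEBSF cultures and 5424, 5340.3 and 5988 in mineralizing cultures (0.01, 95% interval -0.11 to 0.14). The regulatory genes Ppp2r2d, Ppp2r3b, Ppp2r3c, Ppp2r5b and Ppp2r5e had log2 fold changes between -0.17 and 0.15. Of the 5 tested probe sets of Ppp2r5e, values ran from -0.19 to 0.14 and none passed.

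**Figure D2:**
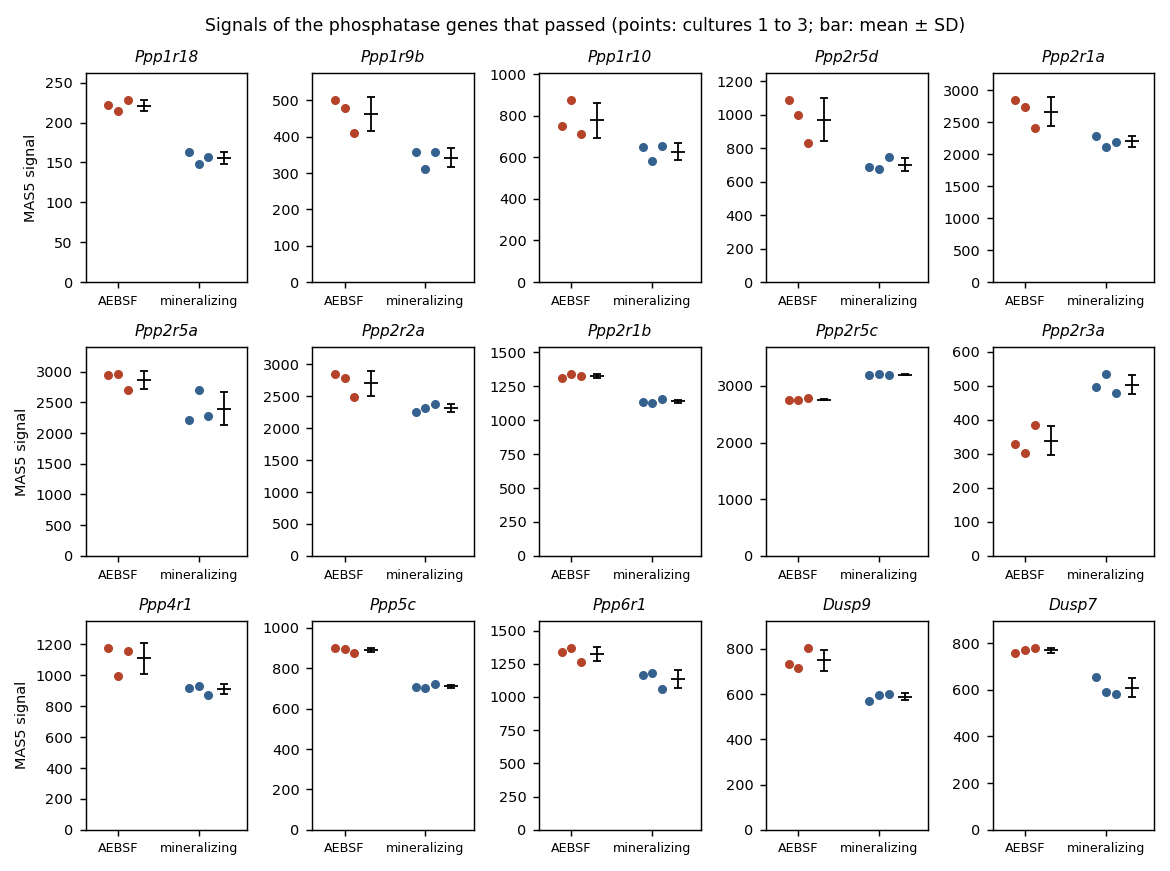
MAS5 signal (vertical axes, linear and starting at 0) of the 15 phosphatase genes that passed, AEBSF cultures in red at left and mineralizing cultures in blue at right of each panel, with 1 point per culture and the mean ± SD beside them. The 2 groups of points are apart in 14 panels and meet in that of Ppp2r5a.

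The sequences upstream of 4 genes are shown as examples. They are 2 PP2A genes with both probe sets higher past the threshold (Ppp2r1a and Ppp2r5d), the PP5 gene, and Ppp2r5c. The brightest probe set of Ppp2r5c was lower, but no single direction is given for that gene. The sequence of Ppp2r3a, whose 2 probe sets both lay lower, is not printed. Each sequence is the 200 bases before the gene's RefSeq start in assembly GRCr8, read along the gene from 5′ to 3′. Capitals mark the GC box (GGGCGG) and the CCAAT box (CCAAT), common binding sequences of promoters, searched on both strands. Ppp2r1a lies at chr1:69212998-69213197 (plus strand), Ppp2r5d at chr9:21773553-21773752 (plus strand), Ppp5c at chr1:86842506-86842705 (minus strand) and Ppp2r5c at chr6:135323896-135324095 (plus strand).
Ppp2r1a: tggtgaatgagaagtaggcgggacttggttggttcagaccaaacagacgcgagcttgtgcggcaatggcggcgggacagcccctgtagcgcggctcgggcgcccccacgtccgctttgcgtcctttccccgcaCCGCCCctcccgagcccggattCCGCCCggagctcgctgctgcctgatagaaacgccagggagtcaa
Ppp2r5d: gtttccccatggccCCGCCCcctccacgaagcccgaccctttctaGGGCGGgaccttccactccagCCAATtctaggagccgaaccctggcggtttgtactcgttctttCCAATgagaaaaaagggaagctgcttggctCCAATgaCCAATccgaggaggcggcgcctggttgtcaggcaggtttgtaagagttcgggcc
Ppp5c: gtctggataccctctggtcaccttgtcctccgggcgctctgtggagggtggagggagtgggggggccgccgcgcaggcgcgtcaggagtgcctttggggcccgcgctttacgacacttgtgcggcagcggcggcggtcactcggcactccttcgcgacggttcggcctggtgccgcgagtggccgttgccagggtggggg
Ppp2r5c: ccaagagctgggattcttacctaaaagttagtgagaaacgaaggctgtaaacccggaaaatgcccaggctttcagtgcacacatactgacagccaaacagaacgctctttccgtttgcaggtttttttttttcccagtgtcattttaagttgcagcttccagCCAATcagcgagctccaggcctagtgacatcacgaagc

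The Ppp2r1a window held 2 GC boxes and no CCAAT box, that of Ppp2r5d held 2 GC boxes and 4 CCAAT boxes, that of Ppp5c held neither, and that of Ppp2r5c held 1 CCAAT box. The window of Ppp2r3a, not printed, held neither box and had a GC content of 38.0%. Of 74 phosphatase genes with a promoter in the RefSeq table, 40 had a GC box in this window and 24 a CCAAT box, where 30.4% and 29.4% of all 27457 promoters did. Those 27457 were not limited to genes read or tested on the array. Among the 11 of the 13 genes called higher that had a promoter, 8 held a GC box and 5 a CCAAT box, and among the 47 that did not pass, 27 and 15 did. Of the 2 genes whose brightest probe set passed lower, 0 held a GC box and 1 a CCAAT box. The cyclic AMP response element (TGACGTCA) stood in 0 of the 11 windows, in 6 of the 47 and in 1.6% of all promoters, and the core of the antioxidant response element (TGACNNNGC) in 0, in 8 and in 8.5%. The median GC content was 64.8% in the phosphatase windows and 52.5% in all. These are matches of letters and do not show that a factor binds there.

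PP5, PP4 and PP6 are relatives of PP2A. Ppp5c encodes PP5, which carries its regulatory part in the same chain and works with the chaperone Hsp90. It had signals of 899.5, 895 and 878 in AEBSF cultures 1, 2 and 3, against 708, 704 and 721 in mineralizing cultures 1, 2 and 3. Both groups were narrow and far apart, a rise of 1.25-fold (0.33 ± 0.07 as log2 fold change and SE; limma adjusted p = 0.00986), and the call held in 16 of 17 alternatives, the exception being the scaling to hybridization controls (adjusted p = 0.313). Ppp4r1, a regulatory subunit of PP4, had signals of 1176, 997 and 1159 in AEBSF cultures, against 920.1, 934 and 872 in mineralizing cultures. The groups did not overlap (1.22-fold; 0.29 ± 0.08 as log2 fold change and SE; limma adjusted p = 0.0326), but the call was lost on leaving out any 1 mineralizing culture (1, 2, 3) or AEBSF 1 or 3 (0.0866, 0.0724, 0.106, 0.102 and 0.0773). A second Ppp4r1 probe set gave 0.12 (adjusted p = 0.568). Ppp6r1, a regulatory subunit of PP6, had signals of 1335, 1367 and 1264 in AEBSF cultures, against 1165, 1178 and 1058 in mineralizing cultures, without overlap (1.17-fold; 0.22 ± 0.07 as log2 fold change and SE; limma adjusted p = 0.0499). Its second probe set passed too (0.29, adjusted p = 0.0257), while the first lay at the threshold and was lost on leaving out any 1 mineralizing culture (1, 2, 3) or AEBSF 1 or 2 (limma adjusted p = 0.101, 0.0869, 0.175, 0.111 and 0.118). Among the others, the catalytic gene Ppp4c averaged 833 ± 99.6 in AEBSF cultures and 843 ± 94.3 in mineralizing cultures, and Ppp6c averaged 1329.6 ± 16.6 and 1298 ± 71.0 (SD, n = 3 each). Neither passed in limma (adjusted p = 0.931 and 0.755), nor did Ppp4r2, Ppp4r3a, Ppp4r3b, Ppp6r2 or Ppp6r3.

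**Figure D3:**
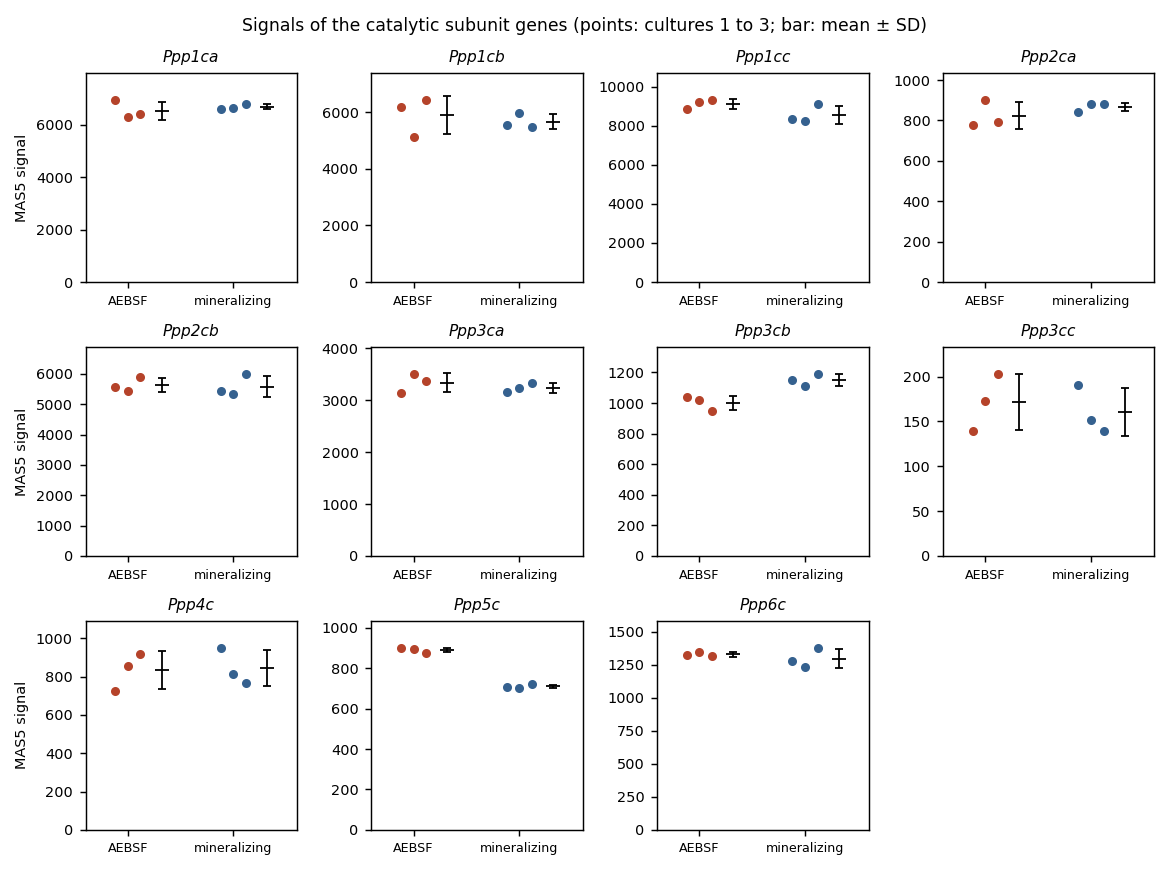
MAS5 signal (vertical axes, linear and starting at 0) of the 11 catalytic subunit genes, AEBSF cultures in red at left and mineralizing cultures in blue at right, with 1 point per culture and the mean ± SD beside them. The groups lie apart for Ppp5c, which passed higher, and for Ppp3cb, which was lower without passing; those of the other 9 overlap.

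PP1 was the largest group. Of its 28 tested genes 3 passed higher and 0 lower in limma (10.7%, against 16.3% of all tested genes in either direction and 7.09% higher), with a median log2 fold change of 0.07. Without adjustment, 7 of the 28 and 3142 of all 9864 tested genes had a p under 0.05 in limma. The 3 genes that passed encode targeting subunits. Ppp1r9b (spinophilin), which links PP1 to actin, had signals of 499.7, 478 and 411 in AEBSF cultures, against 358, 311 and 357 in mineralizing cultures. All AEBSF values were higher, by 1.35-fold on average (0.43 ± 0.11 as log2 fold change and SE; limma adjusted p = 0.0243). Ppp1r18 (phostensin), another actin-associated targeting subunit, had 222, 214.6 and 228 in AEBSF cultures, against 163, 148 and 156 in mineralizing cultures, also without overlap (1.42-fold; 0.51 ± 0.14 as log2 fold change and SE; limma adjusted p = 0.0309). Ppp1r10 (PNUTS), which holds PP1 in the nucleus at chromatin and transcription complexes, had 749, 873 and 710.1 in AEBSF cultures, against 648, 580.3 and 652 in mineralizing cultures (1.24-fold; 0.31 ± 0.09 as log2 fold change and SE; limma adjusted p = 0.0491). AEBSF culture 2 stood above the other 2 cultures with AEBSF for this gene. The Ppp1r9b call was lost on leaving out mineralizing 1 or 2 or AEBSF 1 or 2 (limma adjusted p = 0.056, 0.0955, 0.0859 and 0.0636), the Ppp1r18 call without any 1 of the 6 cultures (0.056 to 0.102), and the Ppp1r10 call on leaving out any 1 mineralizing culture (1, 2, 3) or AEBSF 1 or 2 (0.0983, 0.168, 0.0821, 0.0791 and 0.144). All 3 calls were lost without mineralizing culture 1 or 2, where 1 other gene passed instead, Ppp1r36 lower and Ppp1r8 higher in that order. One of the 3, Ppp1r9b, was kept without mineralizing culture 3, and 0 genes passed without AEBSF culture 1 or 2.

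The 3 catalytic genes of PP1 did not pass, and their groups overlapped. Ppp1ca averaged 6536 ± 343 in AEBSF cultures and 6683 ± 94.3 in mineralizing cultures, Ppp1cb 5917 ± 679.9 and 5675 ± 271, and Ppp1cc 9116 ± 248 and 8555 ± 467 (SD, n = 3 each). Their 95% intervals of the log2 fold change were -0.15 to 0.08, -0.11 to 0.22 and -0.03 to 0.21. Of the subunits that bring PP1 to the translation factor eIF2-alpha and so end the integrated stress response, the stress-induced Ppp1r15a (GADD34) had signals of 676, 681 and 624 in AEBSF cultures and 718, 658 and 675 in mineralizing cultures (log2 fold change -0.05, 95% interval -0.22 to 0.12, limma adjusted p = 0.720). The constitutive Ppp1r15b had 807, 916 and 744 in AEBSF cultures and 802, 756 and 754 in mineralizing cultures (0.09, adjusted p = 0.54), and its dimmer probe set gave 0.68 (adjusted p = 0.0628). The groups overlapped for both genes at the brighter probe set. The inhibitors Ppp1r1a, Ppp1r1b, Ppp1r2 and Ppp1r14b had log2 fold changes of 0.01, 0.03, 0.03 and 0.13 and did not pass, and neither did Ppp1r12a, the targeting subunit of myosin phosphatase, whose 4 probe sets ran from -0.04 to 0.25. Among the others, Ppp1r3f, a glycogen-targeting subunit close to the filter, had signals of 98.3, 97.6 and 97.2 in AEBSF cultures, against 55.1, 61.9 and 67.8 in mineralizing cultures. Its mineralizing mean of 61.6 lay below the filter, so it was tested only through its AEBSF signals, and its log2 fold change of 0.67 (SE 0.22) is given as a description (limma adjusted p = 0.0639). It was 1 of 14 genes that did not overlap between groups and did not pass, 9 higher and 5 lower. Ppp1r3f was picked out after its values were seen. Passed or not, 28 of the 70 tested phosphatase genes did not overlap, against 36.1% of all tested genes.

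Calcineurin genes, which link calcium to the NFAT factors that act in osteoblasts and osteoclasts, gave 0 calls among 4 tested in limma, a number too small to set against the 16.3% of all tested genes. Without adjustment, 1 of the 4 and 3142 of all 9864 tested genes had a p under 0.05 in limma. Ppp3cb, a catalytic subunit, had signals of 1039, 1019.5 and 951 in AEBSF cultures, against 1153, 1113 and 1188 in mineralizing cultures. These did not overlap, but the log2 fold change of -0.20 (95% interval -0.34 to -0.05) missed the threshold (limma adjusted p = 0.0689), and its other 2 probe sets lay at -0.05 and 0.03. The main catalytic gene Ppp3ca, the third catalytic gene Ppp3cc and the calcium-binding subunit Ppp3r1 had log2 fold changes of 0.04, 0.09 and 0.11, with 95% intervals of -0.08 to 0.17, -0.31 to 0.50 and -0.02 to 0.24.

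Of the Dusp genes, 2 of 14 tested were higher and 0 lower in limma (14.3%, near the 16.3% of all tested genes). Without adjustment, 6 of the 14 and 3142 of all 9864 tested genes had a p under 0.05 in limma. Both genes that passed encode cytoplasmic MAP kinase phosphatases that act on ERK. Dusp7 had signals of 758, 771 and 778 in AEBSF cultures, against 654, 589 and 583 in mineralizing cultures. The AEBSF cultures lay close together above the others (1.27-fold; 0.34 ± 0.08 as log2 fold change and SE; limma adjusted p = 0.0157). Dusp9 had 732, 716 and 803 in AEBSF cultures, against 569, 596 and 602 in mineralizing cultures, without overlap (1.27-fold; 0.35 ± 0.08 as log2 fold change and SE; limma adjusted p = 0.0152). The Dusp7 call was lost without mineralizing culture 2 or 3 (limma adjusted p = 0.0656 and 0.059) and the Dusp9 call without mineralizing culture 1 (0.0672). The third cytoplasmic ERK phosphatase, Dusp6, had 136, 184 and 155 in AEBSF cultures and 145, 154 and 167 in mineralizing cultures, with overlap and a wide 95% interval of -0.34 to 0.39. Dusp1, the nuclear phosphatase induced by growth factors and stress, had 1009, 1333 and 1073 in AEBSF cultures and 1256, 1189 and 1491 in mineralizing cultures (log2 fold change -0.21, limma adjusted p = 0.228), and its dimmer probe set gave 0.11. The p38 and JNK phosphatase Dusp10 and the small atypical Dusp14 lay just above the filter, at -0.18 and 0.18 (adjusted p = 0.652 and 0.647). Dusp2, Dusp12 and Dusp19 (higher with AEBSF) and Dusp23 (lower) did not overlap between groups and did not pass (limma adjusted p = 0.0940, 0.155, 0.134 and 0.0993), and were picked out after their values were seen. Passed or not, 6 of the 14 tested Dusp genes did not overlap, against 36.1% of all tested genes. Dusp16 was not analysed here.

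Probe sets of 1 gene read the same RNA and are not replicates. Of 22 phosphatase genes with 2 or more tested probe sets, 14 had values of 1 sign and 8 of both. Of the 6 such genes that passed, Ppp2r1a, Ppp2r5d and Ppp6r1 had a second probe set that passed in the same direction, and 0 had probe sets past the threshold in opposite directions.

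**Figure D4:**
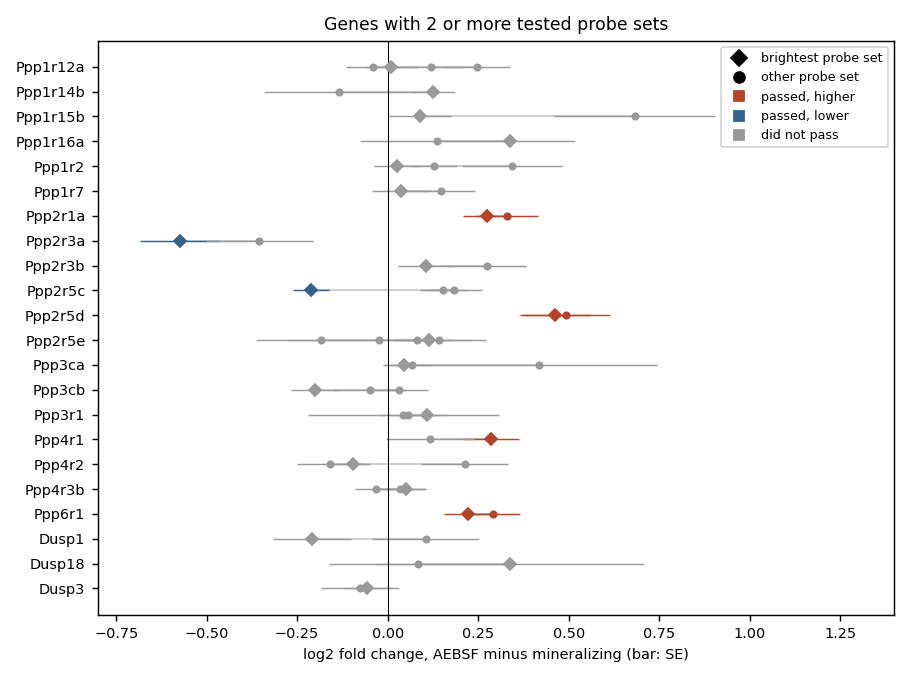
Log2 fold change (horizontal axis, AEBSF minus mineralizing, with SE) of every tested probe set of the 22 genes with 2 or more, diamonds for the brightest. The 2 probe sets of Ppp2r1a, Ppp2r5d and Ppp6r1 stand together to the right of 0, whereas those of Ppp2r5c lie on both sides.

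Genes that work with these phosphatases were taken as lists written with earlier results of these data known. Between 7.69% and 14.3% of the tested genes of each list in this paragraph and the next passed, against 16.3% of all tested genes. None of these lists is set apart by its count. Among 11 tested modulators of PP2A and PP4 (of 15 listed), 1 was lower and 0 were higher. That gene was Igbp1, which binds free catalytic subunits of PP2A, PP4 and PP6 and protects them from degradation. It had signals of 956, 966 and 909 in AEBSF cultures 1, 2 and 3, against 1400.2, 1392 and 1504 in mineralizing cultures 1, 2 and 3. The groups were far apart, a fall larger than that of any phosphatase gene that passed (-0.60 ± 0.06 as log2 fold change and SE; limma adjusted p = 0.000261), and the call held in all 17 alternatives. Among 10 tested calcineurin partners, 1 was lower and 0 higher: Rcan2, an inhibitor of calcineurin, with 293, 302 and 267 in AEBSF cultures, against 476, 422 and 449 in mineralizing cultures (-0.64 ± 0.10 as log2 fold change and SE; limma adjusted p = 0.00271). This call too held in all 17 alternatives. Among 8 tested genes of a list of PP1 partners, 1 was higher, Urm1, a ubiquitin-like sulfur carrier with no established part in PP1 (781 ± 161 in AEBSF cultures and 487 ± 36.5 in mineralizing cultures, SD, n = 3 each).

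In the MAP kinase cascade, the substrates of the Dusp enzymes and the kinases above them, 2 of 16 tested genes were lower and 0 higher, with a median log2 fold change of 0.01. Map2k6, which activates p38, had signals of 71.9, 62.6 and 94.8 in AEBSF cultures, against 141, 157 and 159 in mineralizing cultures, close to the filter but without overlap (-1.02 ± 0.21 as log2 fold change and SE; limma adjusted p = 0.00911). Araf, a kinase at the head of the ERK pathway, averaged 375 ± 30.3 in AEBSF cultures and 546 ± 65.9 in mineralizing cultures (-0.54, SE 0.11, adjusted p = 0.00975), a value that was -0.24 when its probe sets were averaged (adjusted p = 0.148). Of 13 tested genes induced by ERK or feeding back on it, Fos was lower (411 ± 9.88 in AEBSF cultures and 505 ± 19.4 in mineralizing cultures; -0.30, SE 0.09, limma adjusted p = 0.0434), and 0 were higher. The Fos call was lost without any 1 of the 6 cultures (adjusted p = 0.0664 to 0.135). Of 14 tested eIF2-alpha kinases and response genes, Trib3 and Ddit3 were lower by 0.37 and 0.32 on the log2 scale (limma adjusted p = 0.00149 and 0.00185) and 0 were higher.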

How the data were processed

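Per the labels and the submitters' processing notes, total RNA of each culture was labelled by the 1-cycle biotin protocol and read on 1 Affymetrix array, and the deposited values are 1 intensity per probe set, a MAS5 signal from GCOS. That signals were scaled per array was read from their equal trimmed means. Software versions, like detection calls, were not among the sources used. Arrays were not copies of each other (at most 2 equal values of 31099 in 15 pairs), and precision is limited by the number of arrays, 3 in each group, from what the design text calls triplicate cultures; p-values measure the spread between them.

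Probe sets were named from the platform annotation, with symbols updated through RefSeq's GRCr8 gene table. Log2 signals were fitted in R 4.3.3 with limma 3.58.1 (lmFit, eBayes with a variance prior following the mean signal) for AEBSF minus mineralizing, over the 18625 probe sets above the 40th percentile of mean log2 signal, with Benjamini-Hochberg adjustment over all of them. The fit was tried on simulated data, with changes larger than those of the phosphatase genes that passed (at most 0.57 on the log2 scale). Recovery of changes as small as theirs was not tested. A gene was its brightest probe set. Members, lists and tests were chosen with earlier results of these data known.

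Named with values are all members that passed, the catalytic subunits, scaffolds, inhibitors and other members listed by name, members with only another probe set past the threshold (0 genes), and, of each list, up to 4 genes past the threshold by size of change or else the 2 brightest. Titles number the cultures 1 to 3 in both groups. Deviations of same-numbered cultures from their group means correlated at 0.01, -0.12 and -0.04, so the numbers were not taken as pairs. Alternatives were other scalings, constants, filters, variance priors, a replicate block, averaged probe sets and leaving out each culture.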

Additional observations from a re-analysis of the deposited data

How the results depend on the processing

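Each count below is of genes past the threshold in limma, and all alternatives were listed with earlier results known. The count of 15 phosphatase genes became 9 with median centring, 9 without a signal filter and 6 to 13 when 1 culture was left out. It was 6 with scaling to hybridization controls, 2 of them among the 15. With a constant variance prior it was 4, 3 of them among the 15. PP1 (3 calls) gave 1 with hybridization scaling (Ppp1r36, lower, not among the 3), 1 without a filter and 0 to 2 with a culture left out. PP2A (7 calls) gave 3 with median centring, 2 with hybridization scaling, 1 with a constant prior, 4 with averaged probe sets and 3 to 7 with a culture left out. PP2B (0 calls) gave 1 with hybridization scaling, and PP5 (1 call) gave 0. PP4 (1 call) gave 2 with quantile normalization, 0 with median centring, hybridization scaling, no filter, a constant prior or averaged probe sets, and 0 to 1 with a culture left out. PP6 (1 call) gave 0 with median centring, hybridization scaling, no filter, a constant prior or a robust prior, and 0 to 1 with a culture left out. Dusp (2 calls) gave 0 with a constant prior and 1 to 2 with a culture left out. With hybridization scaling it again gave 2, but these were Dusp1 and Dusp23, both lower, while Dusp7 and Dusp9 did not pass. Phosphatase probe sets (18 calls) gave 7 with hybridization scaling, 11 without a filter, 4 with a constant prior and 6 to 16 with a culture left out. Over all probe sets, the count of 2495 was 885 with a constant prior and 1200 to 2250 with a culture left out. Averaging the probe sets of a gene turned the log2 fold change of Ppp2r2a to -0.68, Ppp2r5a to -0.0425, Ppp2r5c to 0.0414 and Ppm1f to -0.32. The average weighs dim probe sets like bright ones. The other probe set of Ppp2r2a averaged 10.4 in AEBSF and 26.8 in mineralizing cultures, and that of Ppp2r5a 17.9 and 23.2, below the filter. Those of Ppp2r5c were tested and averaged 1972 and 869 in AEBSF cultures and 1774.5 and 766 in mineralizing cultures. Why the probe sets of a gene differ was not tested. With the replicate number as a block, although the numbers did not pair the cultures, 9 phosphatase genes passed, with 1 in PP1, 0 in PP4 and 0 in PP6. Over 49 named genes and 817 alternative values, 681 stayed on the same side of the threshold, 120 fell short of it, 12 newly passed and 4 reversed. Among values of genes that were not called, 35 changed sign. Adding the 1 gene that the symbol rule leaves out was not run. Signals near the filter limit what can be read for Dusp10, Dusp14 and Ppp1r1a.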

Other observations

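Of 13 tested metal-dependent phosphatases, which share the chemistry of PP1 and PP2A but not their fold, 1 was higher and 1 lower (15.4%, near the 16.3% of all tested genes). Ppm1f, which removes phosphate from CaM kinases, had signals of 595, 647 and 482 in AEBSF cultures 1, 2 and 3, against 426, 383 and 379 in mineralizing cultures 1, 2 and 3, without overlap (0.53 ± 0.12 as log2 fold change and SE; limma adjusted p = 0.0124). Averaged over its probe sets, Ppm1f had -0.32 and did not pass (adjusted p = 0.253). Ppm1b had 1232, 1355 and 1216 in AEBSF cultures, against 1485, 1463 and 1517 in mineralizing cultures (-0.23, SE 0.06, limma adjusted p = 0.0337), a call lost on leaving out any 1 mineralizing culture (1, 2, 3) or AEBSF 1 or 3 (0.101, 0.0859, 0.103, 0.0893 and 0.0736).

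Of 12 tested dual-specificity and related phosphatases without a Dusp symbol, 0 passed in limma, against 16.3% of all tested genes. Without adjustment, 3142 of all 9864 tested genes and 2 of the 12 had a p under 0.05 in limma. These 2 were phosphatases of regenerating liver, small membrane-bound enzymes tied to growth, and missed the adjusted threshold narrowly. Ptp4a1 had 5808, 5659 and 6587 in AEBSF cultures, against 4595, 5154 and 5488 in mineralizing cultures (log2 fold change 0.25, limma adjusted p = 0.05005). Ptp4a2 had 3345, 3329.9 and 3404 in AEBSF cultures, against 3058, 2915 and 3049 in mineralizing cultures (0.16, adjusted p = 0.0585). The 3 AEBSF values lay above the 3 mineralizing values for both genes. Over its alternatives the adjusted p of Ptp4a1 ran from 0.0359 to 0.493, on both sides of the threshold.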
